A study of Mus musculus with 48 samples.

Results

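Whether androgen exposure before birth changes the course of maturation in GnRH neurons was examined as a treatment by stage interaction in the RNA captured from these cells. The interaction was the difference between DHT and vehicle in adults minus the same difference in young mice, on the log2 scale. A positive value therefore means that the change from young to adult was higher after DHT than after vehicle, and a negative value that it was lower. It was taken over 23 of the 48 libraries of the series, assigned to groups by their labels: all immunoprecipitates (IP) enriched for GnRH neuron RNA from mice with Cre. These were 6 young vehicle, 6 young DHT, 5 adult vehicle and 6 adult DHT libraries, and every gene of the deposited table that passed a filter on low counts (15890 of 23284) was tested.

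All 4 groups were mice labelled GnRH CRE x Floxed L10a-GFP, bred from a homozygous Cre father and a homozygous mother carrying the floxed stop, so that the GnRH-Cre transgene switched on ribosomal protein L10a fused to GFP in GnRH neurons of all of them, vehicle controls included. Preoptic area punches were taken from young (prepubertal) mice or from adults in diestrus after prenatal vehicle or dihydrotestosterone (DHT). The series design names females, while 1 protocol note mentions tissue of both sexes beside adult females, and the samples carry no label of sex. All were taken as female here. The dose and days of DHT and the age in days are not given in the sources used here. The supernatants left after each precipitation, 23 libraries in the same 4 groups, served as the comparison tissue. The remaining 2 libraries of the series, 1 IP and 1 supernatant, came from young mice without Cre and entered no test. Replicates are labelled as biological, with nothing on whether 1 animal or pooled animals made a library. The p-values therefore reflect the spread among these libraries, part of which may be technical.

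GnRH neurons are the final output of the brain to the reproductive axis: they release gonadotropin-releasing hormone in pulses that drive the pituitary, at low output before puberty and at full output after it. Their firing is set by kisspeptin, GABA, glutamate and neuropeptide inputs and by sex steroids, most of which act through neighbouring neurons. DHT is an androgen that aromatase cannot turn into estradiol, and mice exposed to it before birth are used as a model of polycystic ovary syndrome, in which the feedback of ovarian steroids on GnRH release is impaired.

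Across 15890 tested genes, no gene passed the test for an altered course of maturation (0 called, 0% of genes tested; edgeR quasi-likelihood test, smallest adjusted p = 0.259, for Scube3). At an unadjusted edgeR p under 0.05 stood 857 genes (5.39%), 514 of them positive (3.23%) and 343 negative (2.16%), where 794.5 would pass by chance if no gene differed. The median interaction was 0.01 and the median standard error (SE, given after ± below) 0.53. By contrast, 608 genes (3.83%) differed between adult and young mice after vehicle, 324 higher and 284 lower in adults, and 1131 genes (7.12%) after DHT, 604 higher and 527 lower. These counts were not tested against each other. DHT and vehicle differed for 1 gene in adults, Scube3 (0.00629% of genes tested), and for 0 genes (0%) in young mice. In adults 1318 genes and in young mice 239 had an unadjusted edgeR p under 0.05, where 794.5 would pass by chance in each. The fit shares 1 estimate of spread per gene between ages, although adult replicates were less alike. The adult and young counts are therefore not like for like.

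Another count model gave a different number. DESeq2 called 50 genes (0.315%), 44 positive and 6 negative. Of these, 10 reached a mean of 5 CPM (CPM is the count scaled to the total of its library) in at least 1 group, and 31 had a median count of 0 in at least 1 group. With limma's voom method and a weight for each group, 0 were called and 829 had an unadjusted p under 0.05. The counts below use edgeR, and no interaction named below passed its threshold unless a sentence says so.

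How large an interaction the libraries could resolve depended on abundance. The median half-width of the 95% interval was 4.78 log2 units for genes under 1 CPM, 3.21 for those from 1 to 5 CPM and 1.44 from 5 to 20 CPM. It narrowed to 0.75 from 20 to 100 CPM and to 0.49 at 100 CPM or more. The share of genes at an unadjusted p under 0.05 was 13.4% under 1 CPM against 3.26% to 5.19% in the other ranges. Among the 11991 genes with at least 5 CPM in at least 1 group, 275 were positive (2.29%) and 241 negative (2.01%) at that p. The 23 IP libraries held 28672561 to 47054031 counts. Replicates were less alike in adults than in young mice, with median correlations of log2 values across genes of 0.918 and 0.913 against 0.950 and 0.951, while the fit shares 1 estimate of spread per gene between all groups. Adult IP libraries also missed more of the tested genes: the median share with no read was 6.99% in adult vehicle and 6.70% in adult DHT libraries, against 3.73% and 3.04% in the young groups. The last 10 sample numbers of the series were all young libraries, 5 of them IP (2 vehicle and 3 DHT). Without them 0 genes were called and 578 had an unadjusted edgeR p under 0.05, and with a term for them 0 were called and 796 did.

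**Figure D1:**
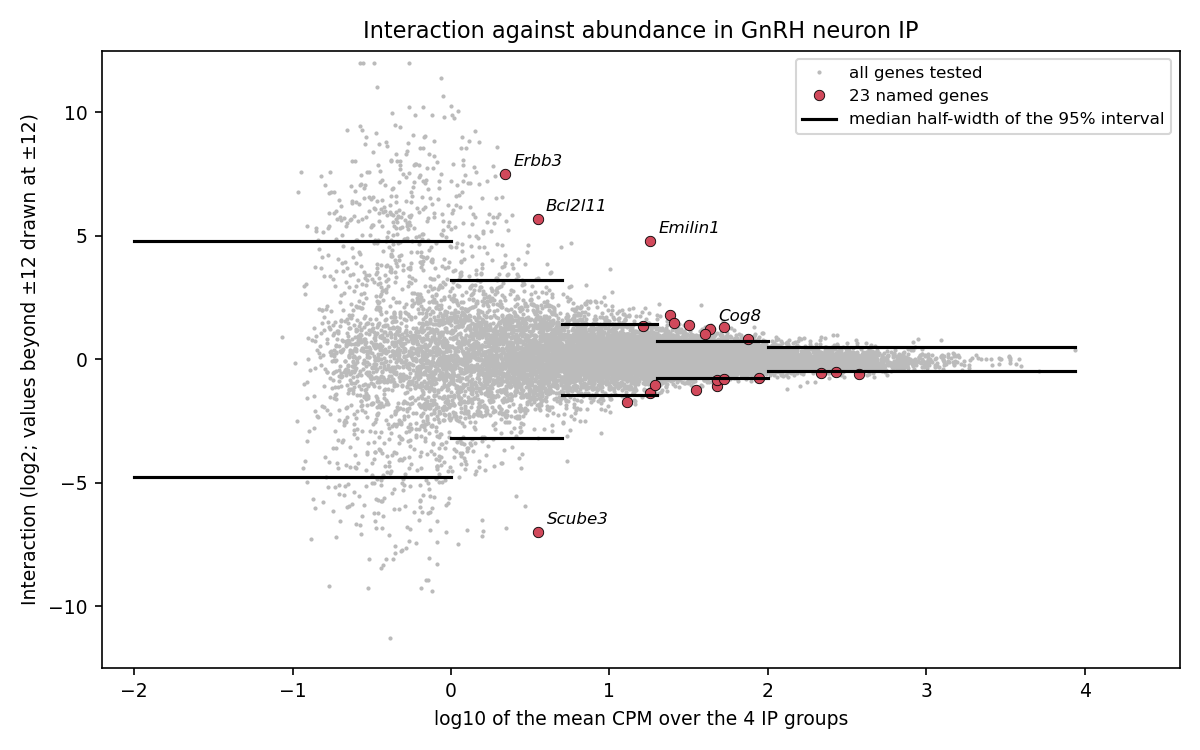
Interaction of every tested gene (log2, vertical axis) against log10 of its mean CPM over the 4 IP groups. Grey dots are the 15890 genes, red dots 23 of the 24 genes of smallest p, values beyond 12 in size are drawn at 12, and black bars the median half-width of the 95% interval, which falls from 4.78 under 1 CPM to 0.49 at 100 CPM or more.

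Gnrh1, which encodes the hormone precursor itself, had no resolved interaction. It lies on chromosome 14 from 67745181 to 67749439 (mm10, as are all positions below). It ran from 1751 to 6817 CPM (median 3214) in young vehicle and from 2816 to 3942 CPM (median 3195) in young DHT libraries. The adult vehicle libraries held 1951, 5919, 6065, 10542 and 16067 CPM, and the adult DHT libraries 664 to 13176 CPM (median 3939.8). The groups overlapped, and both adult groups spread wider than the young ones. The interaction was -0.48 ± 0.68 (SE; 95% interval -1.89 to 0.93), with adult minus young at 1.23 ± 0.50 after vehicle and 0.75 ± 0.48 after DHT. With 1 library left out the interaction ran from -0.93 (without adult DHT replicate 6) to -0.08 (without adult vehicle replicate 5). In IP of this kind, fewer GnRH neurons captured and less RNA per neuron cannot be told apart, and the young IP library without Cre held 61.6 CPM.

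Gal, which encodes galanin, a peptide that GnRH neurons make and release, stood nearest to the threshold among the genes of GnRH neuron identity. The gene lies on chromosome 19 from 3409915 to 3414544. Its level was 52.7 to 101 CPM (median 76.5) in young vehicle and 71.3 to 131 CPM (median 99.6) in young DHT libraries. In adults it was 125, 131, 215, 289.6 and 350.0 CPM after vehicle and 59.5 to 210.0 CPM (median 112) after DHT. All 5 adult vehicle libraries lay above all young vehicle libraries, whereas the adult DHT libraries overlapped the young DHT libraries. Gal rose from young to adult by 1.52 ± 0.30 after vehicle (edgeR adjusted p = 0.00499). The difference was 0.34 ± 0.28 after DHT. The interaction of -1.19 ± 0.41 (95% interval -2.03 to -0.34) did not pass over all genes (edgeR adjusted p = 0.783, unadjusted p = 0.00790). The IP without Cre held 57.8 CPM. In the supernatant the interaction of Gal was -0.74 ± 0.27.

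Kiss1, the kisspeptin gene of neurons that excite GnRH neurons, lies on chromosome 1 from 133321875 to 133329901. It was at 2.16 to 6.34 CPM (median 4.53) in young vehicle, 3.91 to 14.2 CPM (median 6.45) in young DHT, 16.8, 18, 28.2, 28.9 and 43.4 CPM in adult vehicle and 2.41 to 31.9 CPM (median 18.4) in adult DHT libraries. All adult vehicle libraries lay above all young vehicle libraries, while 1 adult DHT library lay below every young DHT library. Kiss1 rose by 2.63 ± 0.48 after vehicle (edgeR adjusted p = 0.00268) and stood at 1.26 ± 0.45 after DHT (edgeR adjusted p = 0.0882), with an interaction of -1.37 ± 0.64 (95% interval -2.69 to -0.06). GnRH neurons are not known to express this gene, and the IP without Cre held 8.81 CPM. In the supernatant, where the neurons around them are read, its interaction was -0.33 ± 0.52. Kiss1r, the kisspeptin receptor gene, had an interaction of -0.51 ± 0.52 in the IP. Its exons share 6.41% of their bases with R3hdm4 on the opposite strand, and the library kit does not mark strand.

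**Figure D2:**
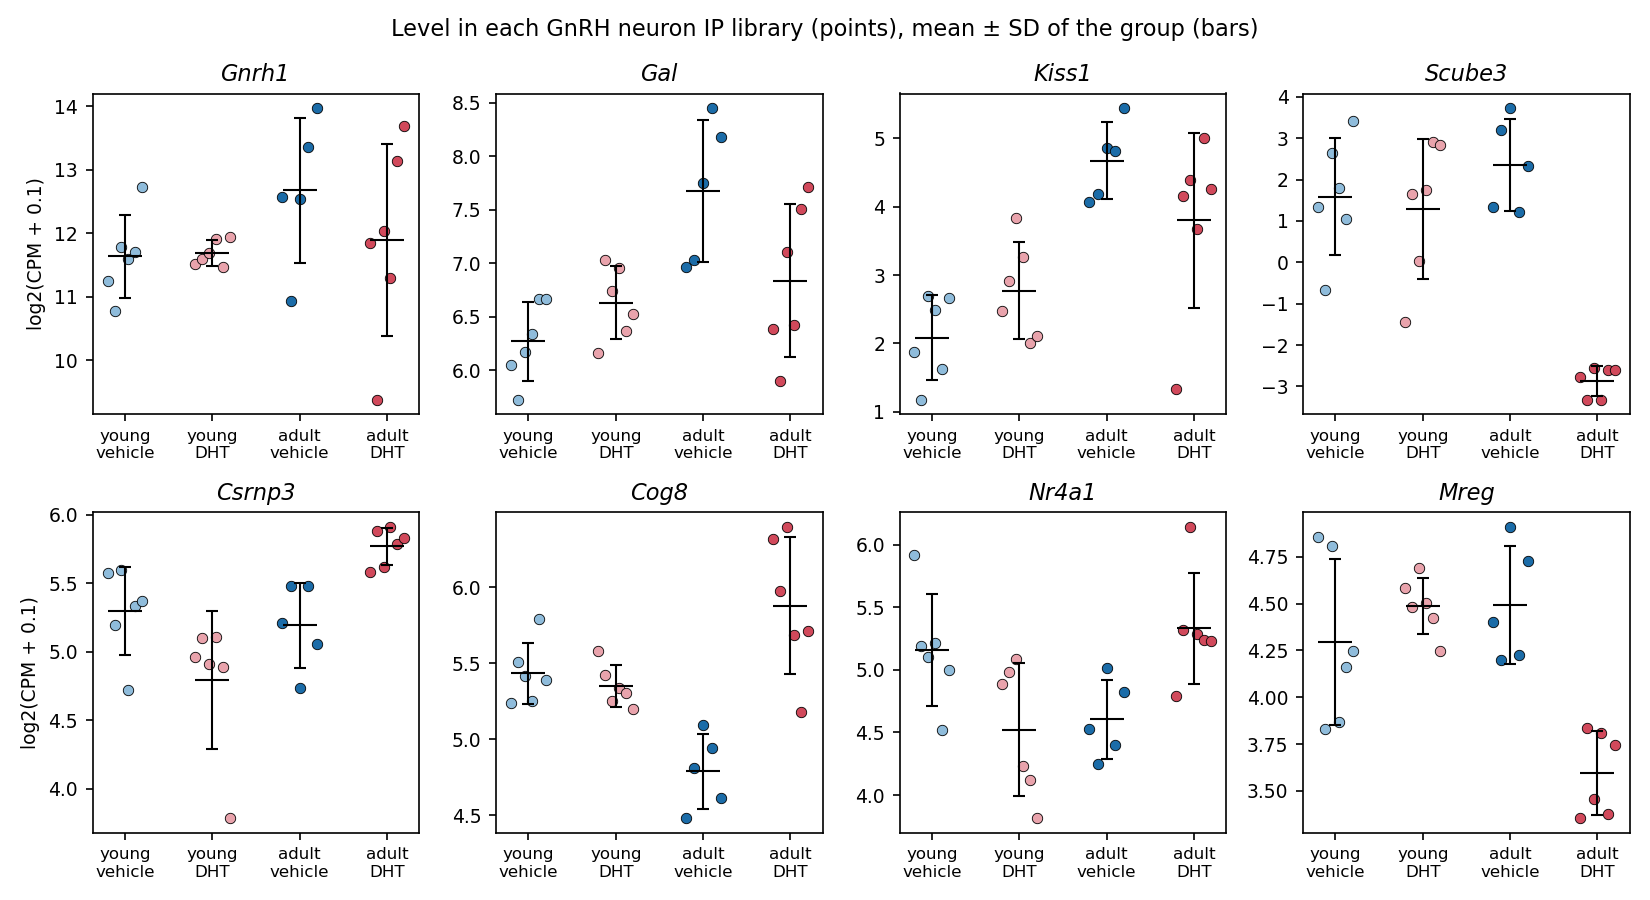
Level of 8 genes in each of the 23 IP libraries as log2(CPM + 0.1), by group (points), with the mean ± SD of the group (bars). Scube3 and Mreg were lower, and Csrnp3 and Cog8 higher, in every adult DHT library than in every adult vehicle library, while Gnrh1, Gal, Kiss1 and Nr4a1 overlapped between these groups.

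Steroid hormone receptor genes showed no common direction. Of 18 tested members (19 in the table), 2 were positive and 2 negative at an unadjusted p under 0.05, against 3.23% and 2.16% of all genes. The median was -0.01. Esr1 (estrogen receptor alpha) had an interaction of -0.35 ± 1.03, Esr2 (estrogen receptor beta) of -1.17 ± 1.80 and Pgr (progesterone receptor) of -0.11 ± 0.48. The signs of Esr1, Esr2 and Pgr turned under other settings. Esr2 reached 8.43 CPM in 1 adult vehicle library and 7.46 CPM in 1 adult DHT library and stayed under 1 CPM in the other adult libraries. The intervals of Esr1 (-2.48 to 1.77) and Esr2 (-4.89 to 2.54) leave changes of several fold unresolved. The membrane-associated progesterone receptor components Pgrmc1 (-0.64 ± 0.22) and Pgrmc2 (-0.71 ± 0.23) were negative. The glucocorticoid receptor gene Nr3c1 (0.94 ± 0.40) and the estrogen-related receptor gene Esrrg (95% interval 0.02 to 2.25) were positive. Pgrmc1, an abundant transcript, was at 322 to 668 CPM (median 453) in young vehicle, 473 to 715 CPM (median 579) in young DHT, 562, 585, 686, 722 and 779 CPM in adult vehicle and 437 to 731 CPM (median 527) in adult DHT libraries. DHT libraries had the higher median in young and the lower median in adult mice, and the groups overlapped at both ages.

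Neuropeptide precursor genes, which encode the peptides neurons release beside their fast transmitters, had mostly negative interactions. Of 37 tested members (39 in the list), 26 had a negative interaction, 70.3% against 49.5% of all genes. At an unadjusted edgeR p under 0.05 were 3 negative members, Gal, Crh and Kiss1, against 2.16% of all genes, and 0 positive members, and none was called. The median was -0.50, beside 0.01 over all genes. The median change from young to adult was 0.62 after vehicle and 0.04 after DHT. In young mice 25 of the 37 were higher after DHT than after vehicle, and in adults 11. In the supernatant the same list had a median of -0.36. There 4 of 36 members had a positive value, and at an unadjusted p under 0.05 were 0 positive and 10 negative members, against 2.50% and 2.95% of all genes. The difference between the fractions was not tested for the list.

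Crh, the corticotropin-releasing hormone gene, was at 6.89 to 23.9 CPM (median 12.9) in young vehicle and 14.9 to 28.3 CPM (median 21.8) in young DHT libraries. Adults held 15.3, 25.1, 31.6, 32.3 and 38.3 CPM after vehicle and 7.11 to 40.9 CPM (median 11.4) after DHT. The vehicle groups overlapped in a single adult library, while the range of the adult DHT libraries enclosed that of the young DHT libraries. Its interaction was -1.37 ± 0.54. Trh, the thyrotropin-releasing hormone gene, had an interaction of -0.87 ± 0.45. Granin and prohormone processing genes, which load and cut peptides in dense-core vesicles, had a median of -0.35 over 21 members, with 15 negative (-0.22 without adult vehicle replicate 2). Of these, Scg5, a chaperone of a prohormone convertase (-0.56 ± 0.26), was negative at an unadjusted p under 0.05, and Cadps, which primes dense-core vesicles (0.67 ± 0.31), was positive. Of all genes tested, 2.16% were negative and 3.23% positive at that p. Scg2, secretogranin II, rose from young to adult by 1.74 ± 0.26 after vehicle and by 1.01 ± 0.25 after DHT (edgeR adjusted p = 0.000331 and 0.0139), with an interaction of -0.73 ± 0.36. The 17 genes of GnRH neuron identity had a median of -0.26, 11 of them negative. It ran from -0.44 (without adult vehicle replicate 2) to -0.11 (without adult vehicle replicate 5). Gal and Scg5, the pair of them at an unadjusted p under 0.05, also belong to the lists above.

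Immediate early genes, which neurons induce within minutes of activation, had mostly positive interactions. Of 22 tested members (23 in the list), 17 were positive, and 4 were positive and 1 negative at an unadjusted edgeR p under 0.05, against 3.23% and 2.16% of all genes. The median interaction was 0.60. Of the 22, 3 were higher after DHT in young mice, and 13 in adults. In the supernatant the median of the list was 0.08, with 2 positive and 0 negative at that p, against 2.50% and 2.95% of all genes there. Nr4a1, a nuclear receptor gene of this class, was at 22.9 to 60.2 CPM (median 35.3) in young vehicle, 14 to 33.9 CPM (median 24.1) in young DHT, 18.9, 21, 23, 28.3 and 32.3 CPM in adult vehicle and 27.5 to 70.6 CPM (median 38.2) in adult DHT libraries. The order of the medians thus reversed between ages, with overlap at each. Its interaction was 1.38 ± 0.37 (edgeR adjusted p = 0.597). It rose from young to adult after DHT (0.84 ± 0.25, edgeR adjusted p = 0.0461) and stood at -0.55 ± 0.27 after vehicle. Ier5 (1.11 ± 0.35), Egr1 (1.07 ± 0.37) and Arc (1.03 ± 0.38) were the other 3 positive members at that p. The negative member was Jund (-0.37 ± 0.18), a subunit of the AP-1 transcription factor. Young vehicle replicate 1 had the highest summed level of the list (1348 CPM, against 733 to 1112 CPM in the other 22 libraries). Without it Nr4a1 had an interaction of 1.18, and the list's median was 0.50.

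The 12 positive and 12 negative interactions of smallest p, among named genes with at least 5 CPM in at least 1 group, were taken whether or not they passed, and none did (edgeR adjusted p from 0.259 to 0.781). Since the interaction chose them, the opposite course of their stage effects and any separation of their adult groups are descriptions and support nothing. The last positive gene taken, Rbpj, had an unadjusted p of 0.00245, and the first left out, Rb1cc1, 0.00259. The last negative gene taken, Lman2l, had 0.00545, and the first left out, Pgrmc2, 0.00557. In 10 of the 12 positive and all 12 negative genes the change from young to adult had opposite signs after vehicle and after DHT. The remaining 2 positive genes, Bcl2l11 and Emilin1, were lower in adults after both treatments.

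**Figure D3:**
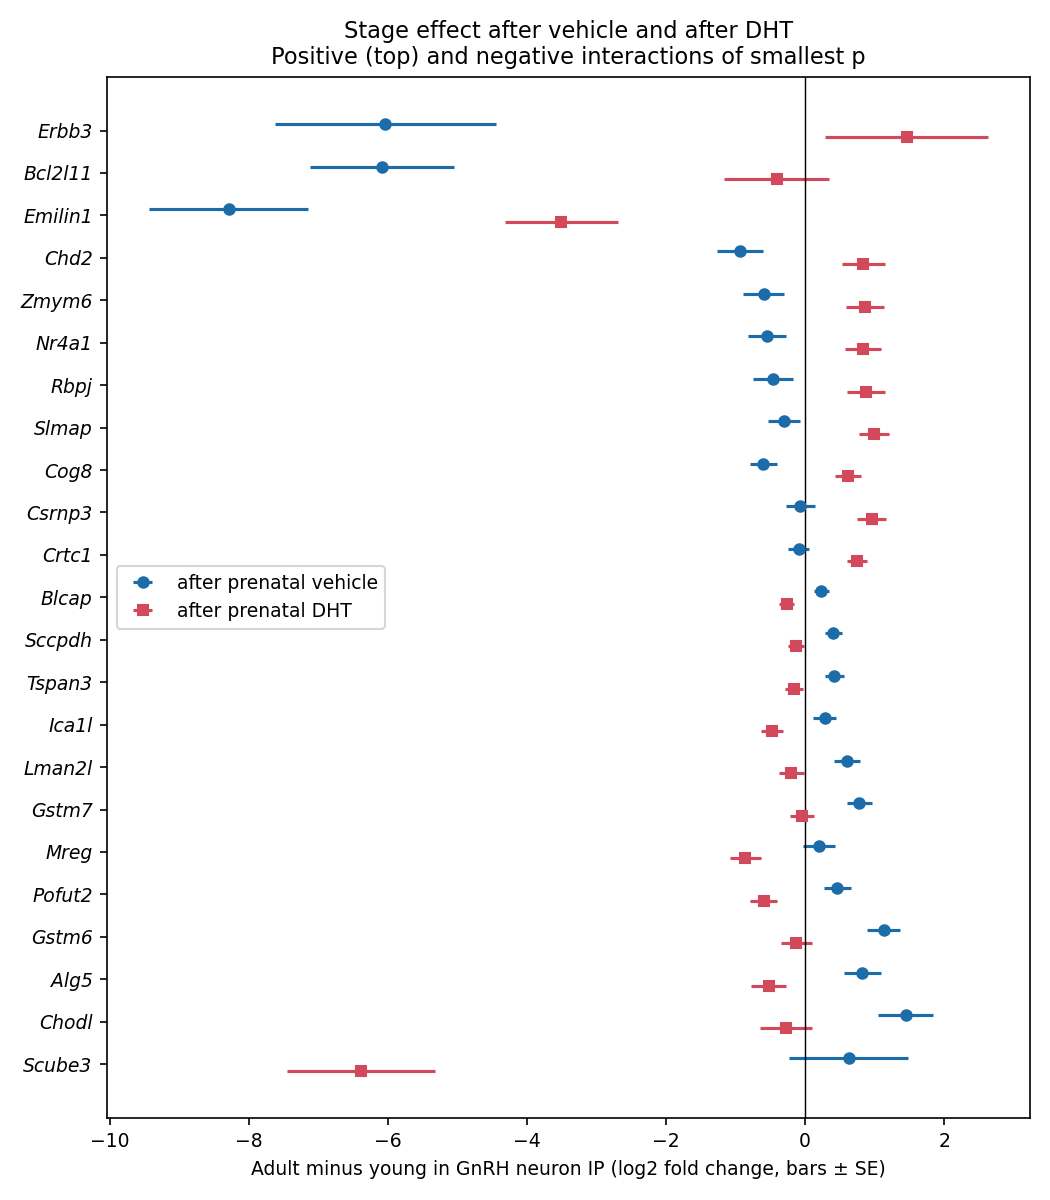
Adult minus young difference (log2, horizontal axis) after prenatal vehicle (blue circles) and after prenatal DHT (red squares) for 23 of the 24 genes of smallest interaction p; bars are ± SE. The positive genes (top) lie lower after vehicle than after DHT and the negative genes (bottom) the reverse, as their choice requires.

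Cog8, a subunit of a Golgi tethering complex, had adult groups that did not overlap, though with a narrow gap (34.1 against 36.2 CPM). It was at 37.7 to 55.3 CPM (median 42.2) in young vehicle, 36.7 to 47.8 CPM (median 39.9) in young DHT, 22.2, 24.4, 28, 30.6 and 34.1 CPM in adult vehicle and 36.2 to 84.4 CPM (median 57.7) in adult DHT libraries. The young groups were close to each other, and every adult DHT library exceeded every adult vehicle library. The interaction was 1.22 ± 0.27 (edgeR adjusted p = 0.576). Such separation of the adult groups, with DHT higher, held for 4 of the 12 positive genes (Cog8, Bcl2l11 and Csrnp3 among them) and for 42 genes in all (0.264%), and nothing is read from the difference, since the choice of the 12 used the same libraries. In young mice it held for 0 of the 12 (0.0378% of all genes). The young IP library without Cre held 37.3 CPM of Cog8, within the range of the young DHT libraries.

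Among the other positive genes, Crtc1, a coactivator of CREB (0.83 ± 0.21), Slmap, a membrane-associated scaffold (1.30 ± 0.32), and Csrnp3, a nuclear factor (1.02 ± 0.30), rose from young to adult after DHT (edgeR adjusted p = 0.00239, 0.00627 and 0.00525). After vehicle their stage differences were -0.09, -0.31 and -0.07. Chd2, a chromatin remodeller (1.78 ± 0.45), Zmym6, a zinc finger gene (1.46 ± 0.40), and Rbpj, the transcription factor of Notch signalling (1.34 ± 0.40), were of like size. Another 3 had large values with adult vehicle libraries near 0. Bcl2l11, which encodes the pro-apoptotic protein Bim, was at 0.226 to 10.6 CPM (median 7.01) in young vehicle and 0.748 to 8.56 CPM (median 5.01) in young DHT libraries, and in adults at 0.0250, 0.0553, 0.102, 0.105 and 0.116 CPM after vehicle and 0.708 to 7.18 CPM (median 2.80) after DHT. Each adult vehicle library lay below each library of the other groups. Bcl2l11 fell from young to adult after vehicle (-6.09 ± 1.04, edgeR adjusted p = 0.00128), with an interaction of 5.68 ± 1.21. Emilin1, an extracellular matrix gene, fell with age after both treatments (-8.29 ± 1.15 after vehicle and -3.51 ± 0.81 after DHT, edgeR adjusted p = 0.000135 and 0.00873), with an interaction of 4.78 ± 1.23. Its adult vehicle libraries held 0.0233, 0.0276, 0.0512, 0.125 and 0.314 CPM and its adult DHT libraries 0.0850 to 6.84 CPM (median 2.64). Erbb3, a neuregulin receptor gene used by oligodendrocyte lineage and Schwann cells, was at 0 in 3 of 5 adult vehicle libraries, with an interaction of 7.50 ± 1.94. The fitted values of these 3 genes rest on few reads in adult vehicle libraries and depend on the prior count.

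Scube3, which encodes a secreted or membrane-tethered protein with EGF-like domains, lies on chromosome 17 from 28142141 to 28174854 and had the smallest p of all genes. Young libraries ran from 0.528 to 10.5 CPM (median 2.89) after vehicle and from 0.268 to 7.45 CPM (median 3.15) after DHT. Adult libraries held 2.23, 2.42, 4.92, 9.04 and 13.2 CPM after vehicle, and 0 to 0.0698 CPM (median 0.0553) after DHT with 2 of 6 at 0. The IP without Cre, from young mice, held 1.57 CPM. The adult DHT group alone stood apart, below every library of the other 3 groups. The interaction was -7.02 ± 1.32 (95% interval -9.73 to -4.30; edgeR adjusted p = 0.259). After DHT the gene fell from young to adult (-6.39 ± 1.06, edgeR adjusted p = 0.000558), against 0.62 ± 0.85 after vehicle. The adult DHT libraries held few reads of this gene, and the size of the fitted values depends on the prior count. In the supernatant its interaction was -0.35 ± 0.35.

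The other negative genes had smaller and more even values. Mreg, which encodes melanoregulin, a regulator of organelle transport, was at 14.2 to 28.8 CPM (median 18.4) in young vehicle, 18.9 to 25.7 CPM (median 22.4) in young DHT, 18.2, 18.6, 21, 26.4 and 30 CPM in adult vehicle and 10.1 to 14.2 CPM (median 12.1) in adult DHT libraries. Each adult DHT library lay below each adult vehicle library. It fell after DHT (-0.86 ± 0.22, edgeR adjusted p = 0.0197), with an interaction of -1.06 ± 0.32. Separation of the adult groups with DHT lower held for 3 of the 12 negative genes (Mreg, Scube3 and Ica1l) and for 26 genes in all (0.164%), and in young mice for 0 of the 12 (0.113% of all genes). Ica1l (-0.76 ± 0.22) shares 8.83% of its exon bases with Fam117b on the opposite strand. Alg5, a glucosyltransferase of N-glycan assembly, stood at -1.35 ± 0.37, Pofut2, a protein O-fucosyltransferase, at -1.06 ± 0.28 and Lman2l, a cargo lectin, at -0.81 ± 0.26. Chodl, a membrane lectin (-1.72 ± 0.55), rose with age after vehicle (edgeR adjusted p = 0.0397). So did the glutathione S-transferase genes Gstm6 (-1.25 ± 0.33) and Gstm7 (-0.82 ± 0.25; edgeR adjusted p = 0.00802 and 0.0140). Gstm6 and Gstm7 are close paralogs of 1 gene cluster, and reads shared between them make their split uncertain. Blcap (-0.50 ± 0.15), the tetraspanin gene Tspan3 (-0.58 ± 0.18) and Sccpdh (-0.54 ± 0.17) were the most abundant of the set.

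Among genes of excitability and release few members stood at an unadjusted p under 0.05. Of all genes tested, 3.23% were positive and 2.16% negative at that p. Sodium, calcium, HCN and TRP channel genes had a median of 0.11 over 40 members. The calcium channel subunit genes Cacnb2 (0.75 ± 0.30) and Cacna1a (1.08 ± 0.52) were positive, and Cacng4 (-0.79 ± 0.35) was negative, at an unadjusted p under 0.05. Cacng4 fell with age after DHT (-0.97 ± 0.24, edgeR adjusted p = 0.0149) and stood at -0.18 ± 0.25 after vehicle. Potassium channel genes had a median of 0.25 over 50 members (0.15 to 0.49 with 1 library left out, the extremes without adult vehicle replicates 1 and 2), 33 of them positive, and Kcnh3 (1.79 ± 0.80) alone stood at an unadjusted p under 0.05. Synaptic vesicle release genes had a median of 0.12 over 33 members, with the active zone gene Rims2 (0.92 ± 0.29) positive and Syt5, a calcium sensor of vesicles (-0.42 ± 0.20), negative. Among 27 genes of GABA synthesis, transport and receptors 0 stood at an unadjusted p under 0.05 in either direction, and their median of 0.00 changed sign in 16 of 27 other settings. The supernatant medians of these lists were -0.10, -0.11, 0.08 and -0.21.

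Genes in which human variants delay or prevent puberty had a median of 0.20 over 41 tested members (42 in the table). The leptin receptor gene Lepr (2.42 ± 1.01) and Rab3gap2 (0.91 ± 0.34) were positive and Kiss1 negative at an unadjusted p under 0.05. Rab3gap2 shares 18.83% of its exon bases with Iars2 on the opposite strand. Unfolded protein response and chaperone genes had a median of -0.11 over 25 members, 16 of them negative and 9 positive. At an unadjusted p under 0.05 were 0 positive and 2 negative members, the chaperones Dnajc3 (-0.95 ± 0.41) and Pdia6 (-0.62 ± 0.29). Both rose with age after vehicle (1.13 ± 0.29 and 0.92 ± 0.21, edgeR adjusted p = 0.0316 and 0.0134). Among 29 autophagy genes the initiation factor Rb1cc1 (1.32 ± 0.39) was positive and the lysosomal gene Lamp1 (-0.43 ± 0.20) negative at that p, and the median was -0.07. Of all genes tested, 3.23% were positive and 2.16% negative at an unadjusted p under 0.05.

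Ribosomal protein and oxidative phosphorylation genes, which build ribosomes and the respiratory chain, had small and mostly negative values. Of 80 cytosolic ribosomal protein genes, 75 had a negative interaction (93.8%), with a median of -0.16. With 1 library left out it ran from -0.46 (young vehicle replicate 6) to -0.03 (adult DHT replicate 2, with 53 of 80 negative). Of 52 oxidative phosphorylation genes 46 were negative (88.5%), with a median of -0.17, which ran from -0.40 to -0.08 without the same libraries. In both lists 0 members reached an unadjusted p under 0.05. Transcripts of such lists are abundant, and genes of 100 CPM or more had a median of -0.10 as a whole. In the supernatant the list medians were -0.04 and -0.01. Rpl10a, the gene of the tagged ribosomal protein, had an interaction of 0.00 ± 0.34 (95% interval -0.71 to 0.71), with reads of the tagged copy not separated from it.

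**Figure D4:**
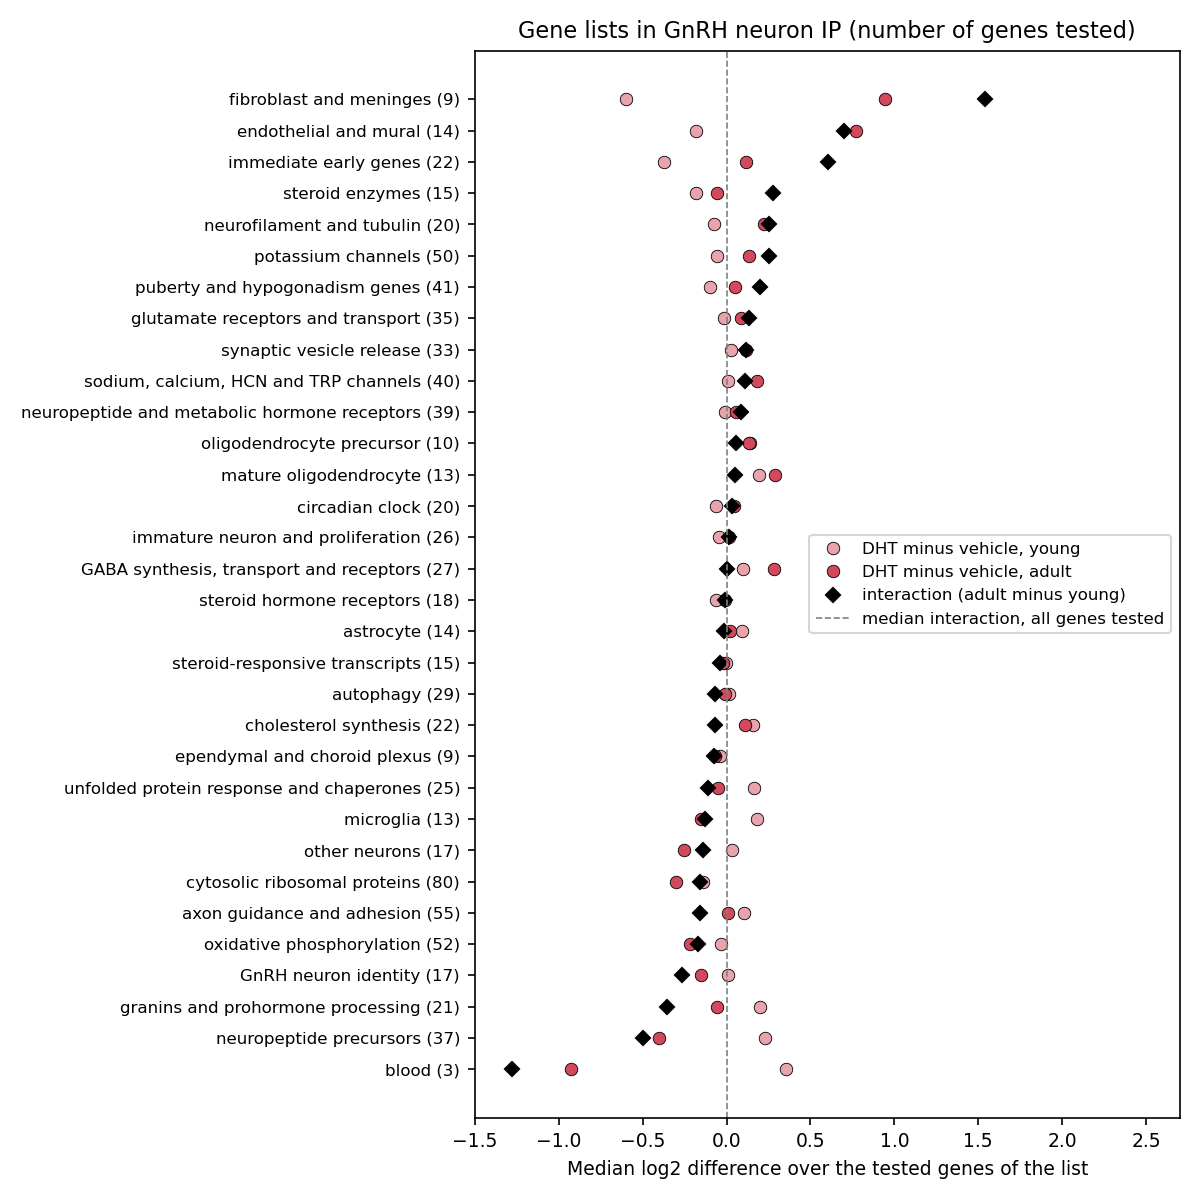
Median over the tested genes of each list (number in brackets) of DHT minus vehicle in young (pink) and adult IP (red) and of the interaction (black diamonds), in log2; the dashed line is the median interaction of all genes, 0.01. Neuropeptide precursors lie at -0.50 and immediate early genes at 0.60; the fibroblast and endothelial lists at the top changed sign without 1 library.

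Markers of other cell types were read in each IP library, since capture carries some RNA of the surrounding tissue. Fibroblast and meninges markers had a median interaction of 1.54, with 8 of 9 positive, and endothelial and mural markers of 0.70, with 8 of 14 positive. Adult DHT replicate 4 stood apart, with a summed level of 213 CPM of fibroblast markers against 17.5 to 39.6 CPM in the other 5 libraries of its group, and 223 CPM of endothelial markers against 2.69 to 24.1 CPM. Without it the list medians were -0.14 and -0.47. Vwf, an endothelial marker, reached 12.9 CPM in that library and was at 0 in 4 of 5 adult vehicle libraries. Young vehicle libraries held 44.1 to 111 CPM of the endothelial markers, young DHT libraries 28 to 123 CPM and adult vehicle libraries 8.17 to 73.4 CPM. The part of these cells in the named results was not tested. Without replicate 4 the neuropeptide list had a median of -0.47 and the immediate early gene list of 0.61. The summed level of mature oligodendrocyte markers was lower in adults after both treatments, at a median of 1868 against 4592 CPM after vehicle and 2532 against 5179 CPM after DHT, and the list's median interaction was 0.05. Astrocyte markers had a median of -0.02 and microglia markers of -0.13.

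Genes that differed with age in the supernatant were then followed in the IP of the same groups, whose libraries did not enter that choice. The IP is still no independent sample, since each shares its tissue with a supernatant and carries some RNA of the surrounding cells. The part of that RNA in the values below was not tested. In the supernatant, averaged over both treatments, 91 genes were called at least 2-fold higher in adults and 254 at least 2-fold lower (edgeR, adjusted p under 0.05). Of the first, 78 were tested in the IP, with a median change from young to adult of 1.18 after vehicle and 1.26 after DHT and a median interaction of -0.08. At an unadjusted p under 0.05, 4 were positive and 4 negative (5.13% each, against 3.23% and 2.16% of all genes). Of the second, 221 were tested, with medians of -1.52 after vehicle and -1.36 after DHT and a median interaction of 0.19. Here 12 were positive and 10 negative (5.43% and 4.52%, against 3.23% and 2.16% of all genes). In neither set was a gene called. As an example chosen after its values were seen, Il33, an alarmin gene of oligodendrocytes and astrocytes, differed between adult and young IP by 2.73 ± 0.43 after vehicle and 2.46 ± 0.42 after DHT.

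The same interaction in the supernatant was resolved more finely, with a median standard error of 0.19 against 0.53 in the IP. Of 16286 genes 0 were called (0%, smallest edgeR adjusted p = 0.875), and 888 (5.45%) had an unadjusted p under 0.05. The genes of smallest p there were Luzp1 (0.46 ± 0.11), Tac2, which encodes neurokinin B (-1.31 ± 0.32), and the cell cycle inhibitor gene Cdkn1b (0.60 ± 0.16). In the IP, Tac2 had an interaction of -1.10 ± 0.65, close to its supernatant value but with wider error. Of the 24 genes of smallest p in the IP, 3 of the 12 positive and 1 of the 12 negative there had an unadjusted p under 0.05 in the supernatant. Over all genes of the supernatant that share was 5.45%. Zmym6, 1 of these 3 genes, had the opposite sign in the supernatant (-0.43, against 1.46 in the IP). The supernatant sign matched that of the IP in 9 of the 12 positive and 10 of the 12 negative genes.

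Whether the interaction differed between the fractions was tested directly in 1 fit of 46 libraries. That fit shares 1 estimate of spread per gene between the fractions and treats each IP and its supernatant as independent. In it the interaction in the IP alone was called for 339 genes, against 0 in the fit of IP libraries. The test of the difference called 4 of 16660 genes (0.024%): Scube3, Allc, Gen1 and 2410057H14Rik (edgeR adjusted p = 0.0307, 0.0307, 0.0329 and 0.0413). Scube3 had a difference of -6.69 ± 1.27, lower in the IP. The other 3 genes, named after their values were seen, were positive in the IP but absent from all or nearly all libraries of 1 or more IP groups, so that no fold is given for them. Allc and 2410057H14Rik were at 0 in all 5 adult vehicle libraries, and Gen1 in all 6 young DHT and 4 of 5 adult vehicle libraries. Zmym6 (difference 1.85 ± 0.43, edgeR adjusted p = 0.0753) did not pass. The 4 calls did not hold with the replicate block, nested in condition or not, or with voom (0 called with each). With a filter of 1 CPM in every library of a group 0 were also called. That filter removed Allc, Gen1 and 2410057H14Rik before the test, since their means were under 1 CPM in every group of both fractions. Of the 4 genes it therefore retested Scube3 alone.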

How the data were processed

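Poly(A) RNA of preoptic punches was made into SMARTer v4 Ultra Low libraries, per the labels' protocols; this kit does not mark strand. The authors deposited estimated counts per gene (98.49% of values whole), which were rounded to whole numbers here. Per the submitters' processing notes, the authors worked on build mm10 with HTSeq 0.6.1, TopHat2 2.0.13 and Bowtie2 2.2.1, among other tools. The tool and annotation behind the counts are not stated in what was used here. Positions and exon overlaps come from GENCODE M21 (153 of 154 named genes matched).

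Groups and replicate numbers came from the labels. Low genes were removed with filterByExpr (10 counts at least, total at least 15). Libraries were scaled by TMM and genes tested with the robust quasi-likelihood F test of edgeR 4.0.16 in R 4.3.3, with Benjamini-Hochberg adjustment over all tested genes and a threshold of 0.05. The 4 groups of a fraction entered 1 fit, and both fractions (46 libraries) a fit for the difference between them. SE values came from the F statistic and 95% intervals from its degrees of freedom. Alternatives were DESeq2 1.42.0, voom (limma 3.58.1), RLE size factors, other filters, a replicate block, a term for or removal of the last 10 sample numbers, removal of genes higher in the IP without Cre, and leaving out each library. Gene lists under other settings were added after seeing the data.

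The genes named were the 12 of smallest p in each direction with at least 5 CPM in at least 1 group (predicted genes left out), the 3 of smallest p in the supernatant and in the difference, a fixed set of reproductive genes, and the 4 members of smallest p in lists described. Some of these genes are not reported here. The comparison, the members and the gene lists were chosen with earlier results of these data known.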

Additional observations from a re-analysis of the deposited data

Results flagged for a closer look

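In groups of 5 or 6 IP libraries, 1 library lay far from the others in 11 of 172 groups of values examined, where 8.6 are expected by chance. Low libraries were young vehicle replicate 6 for Zmym6 (11.1 CPM, the others 24.8 to 33.2) and for Chodl (2.19 CPM, 5.88 to 9.05), young DHT replicate 6 for Csrnp3 (13.7 CPM, 29.5 to 34.4) and adult vehicle replicate 1 for Blcap (247 CPM, 289 to 299.95). High libraries were adult vehicle replicate 2 for Esr2 (8.43 CPM, 0.0786 to 0.746), adult DHT replicate 1 for Esr2 (7.46 CPM, 0.105 to 0.526) and young vehicle replicate 6 for Rpl10a (301 CPM, 149.9 to 191). By summed CPM of a list, young vehicle replicate 5 was high for astrocyte markers (1548, 1233 to 1304), adult vehicle replicate 3 for microglia markers (119, 91.1 to 97.9), adult DHT replicate 4 for fibroblast and meninges markers (213, 17.5 to 39.6) and young vehicle replicate 1 for immediate early genes (1348, 1057 to 1112).

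The interaction differed between IP and supernatant for Allc (edgeR adjusted p = 0.0307), Scube3 (0.0307), Gen1 (0.0329) and 2410057H14Rik (0.0413), by the test of the difference itself. With the replicate block, nested in condition or not, 0 genes were called (smallest edgeR adjusted p = 0.886 and 0.0712). Scube3 was at 2.23 to 13.2 CPM in adult vehicle IP and at 0 to 0.0698 CPM in adult DHT IP. The other 3 genes had no read in many IP libraries, so no fold is given for them.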

How the results depend on the processing

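The count of 0 genes in the IP became 50 with DESeq2 and 339 (216 positive, 123 negative) in a fit of both fractions, whose estimate of spread takes in the less variable supernatant. It stayed 0 with RLE size factors, voom, no filter, a filter of 1 CPM in every library of a group, the replicate block, a term for or removal of the last 10 sample numbers, and removal of 1264 genes whose no-Cre IP exceeded its supernatant at least 2-fold. Leaving out 1 library gave 0 to 1 (Bmp1, without adult vehicle replicate 3). The supernatant count stayed 0 under all settings run, and 0 to 1 without 1 library (Tuba1c, without adult DHT replicate 6). The 4 genes of the difference between fractions became 159 with DESeq2, 22 with no filter, and 0 with voom, the 1 CPM filter, the replicate block, that block nested in condition, and the term for the last 10 sample numbers. They were 4 with RLE size factors and 0 to 26 without 1 library (26 without IP adult DHT replicate 1). Of the 4 genes, the 1 CPM filter left only Scube3 to be tested, so it is no retest of the other genes. The cause of these shifts was not tested.

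Same-numbered libraries of different IP groups correlated above 0.1 in 9 of 33 pairs (-0.16 to 0.26). Libraries of unlike number in different groups were not compared, so these values cannot decide whether the numbers pair samples across groups. The main fits did not pair them. An IP and its own supernatant were not compared in this way. The main fit of the difference treated them as independent. With the block nested in condition, which pairs same-numbered fractions of a group, 0 genes were called (smallest edgeR adjusted p = 0.886). DESeq2 called 9 of 65 named interactions, against 0.315% of all genes, and the fit of both fractions 28, against 339 of 16660 genes. The 65 include the genes chosen for a small interaction p in these same libraries, so nothing is read from their higher share. Signs turned for 4 genes near 0 or with wide error. Rpl10a was -0.00226 with DESeq2, -0.00224 with RLE, -0.0906 with voom, -0.0014 with no filter, -0.0221 with the 1 CPM filter, -0.19 with the replicate block, -0.0231 in the fit of both fractions and -0.18 to 0.15 without 1 library. Esr1 was 0.24 with voom, 0.24 with the block and -0.79 to 0.82 without 1 library. Pgr was 0.0326 with voom and -0.31 to 0.10 without 1 library, and Esr2 was 0.0174 without the last 10 sample numbers and -3.76 to 1.62 without 1 library. The medians of 13 of 32 lists kept their sign in all 27 settings run, among them neuropeptide precursors (-0.81 to -0.39) and immediate early genes (0.37 to 0.70). Under 20 CPM, median half-widths of 1.44 or more leave smaller interactions unresolved.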

Other observations

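Cytoskeletal genes of neurons, neurofilaments and tubulins, had a median interaction of 0.25 in the IP, with 16 of 20 positive, and of 0.22 in the supernatant, with 17 of 20 positive and 5 positive at an unadjusted edgeR p under 0.05. Over all genes tested 50.5% were positive in the IP and 50.2% in the supernatant, where 2.50% were positive and 2.95% negative at that p. Axon guidance and adhesion genes had medians of -0.16 and -0.17 over 55 genes, with 34 negative in the IP and 9 negative at that p in the supernatant. Glutamate receptor and transport genes had a median of 0.14 in the IP and -0.22 in the supernatant (35 genes, 7 negative at that p in the supernatant). None of these genes was called in either fraction.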
